A study of Mus musculus with 12 samples.

Results

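The limb T-box genes *Tbx2*, *Tbx3*, *Tbx4*, *Tbx5*, *Tbx15* and *Tbx18* and the homeobox gene *Pitx1* were examined in E15.5 forelimb zeugopod cartilage of wild type (WT) and Hox mutant mice. The members were the 7 rows, of 36186 gene rows, that carry these symbols. The zeugopod is the forearm segment that forms the ulna and radius. All 12 libraries came from embryos of a mixed 129/CD-1 background. Cells were captured by laser microdissection (LCM), 3 libraries from each of 4 groups (WT resting, WT proliferative, WT hypertrophic and *aadd* mutants). The mutants are homozygous for frameshift mutations in the first exons of *Hoxa9*, *Hoxa10*, *Hoxa11*, *Hoxd9*, *Hoxd10* and *Hoxd11*, made by a LoxP insertion with a small deletion in each gene. In the GEO labels the hypertrophic samples are named hyperproliferative, and those of *aadd* resting. By the methods, the whole chondrocyte population of the small *aadd* zeugopod was taken as 1 sample, and the captures held some perichondrium. Genotype and captured region therefore cannot be told apart where *aadd* is compared with a WT compartment. The replicates are described as independent sets, with no statement of how many embryos each set holds.

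T-box proteins are transcription factors that bind DNA through a shared T-box domain. *Tbx5* is transcribed in the early forelimb bud, where it is needed for *Fgf10* expression and bud outgrowth, while *Tbx4* and *Pitx1* are the usual marks of the hindlimb bud. *Pitx1* acts upstream of *Tbx4* there and gives the limb much of its hindlimb character. *Tbx2* and *Tbx3* are close relatives that act mostly as repressors, in part on cyclin-dependent kinase inhibitor genes, and *Tbx15* and *Tbx18* are repressors of the limb mesenchyme and young skeleton. No hindlimb sample was analysed here, so forelimb levels are given without a hindlimb level to set them against.

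Values are NRPKM, that is RPKM that the authors normalized further across the libraries. They allow levels to be compared between genes per length. From single-exon genes, 1 read on 1 kb was worth 0.309 to 0.53 NRPKM. That corresponds to an effective depth of 1890000 to 3240000 reads per library. It holds the further normalization and may differ from the true number of reads. The test took in the 10936 genes that reached 5 NRPKM in 3 or more of the 12 libraries. Of the members, 6 passed this filter and *Pitx1* did not. A gene is called different here at an unadjusted limma *P* of at most 0.05 with a fold change (FC) of at least 2 between WT compartments, or at least 1.5 between *aadd* and WT resting. The *P* adjusted over all genes tested is given beside each call.

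The 6 chondrocyte markers (*Col2a1*, *Acan*, *Sox9*, *Col9a1*, *Matn1* and *Hapln1*) summed to 1770 to 3490 NRPKM in the WT resting, WT proliferative and *aadd* libraries, and the lowest library of the series was WT hypertrophic replicate 2 at 444. The hypertrophic markers *Col10a1*, *Ihh*, *Mmp13*, *Spp1*, *Ibsp* and *Alpl* summed to 20.2 to 26.6 NRPKM in WT resting, 241 to 514 in WT proliferative, 1190 to 3370 in WT hypertrophic and 18.7 to 28 in *aadd*. WT hypertrophic replicates 2 and 3 stood apart from replicate 1. The 10 endothelial markers summed to 23.5 NRPKM in replicate 1 and reached 301, and the 6 osteoclast and macrophage markers summed to 50 NRPKM in replicate 1 and reached 1200. Replicate 1 also had less *Mmp13* (3.05 NRPKM, against 735 and 661) and *Spp1* (24.1, against 1080 and 979). Its *Ibsp* (718, against 968 and 1330) and *Alpl* (121, against 122 and 162) lay closer to the others. Its *Col10a1* (264, against 166 and 221) and *Ihh* (56.3, against 9.54 and 15.3) were higher. WT resting replicate 2 stood apart through skin keratins, with *Krt5* at 40.4 NRPKM against at most 2.87 in any other library. WT proliferative replicate 3 had the most of the 10 skeletal muscle markers, at 138 NRPKM against at most 59.1 elsewhere. In bulk libraries such as these, fewer cells of a type and less RNA per cell cannot be told apart.

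The members lie on 5 chromosomes of mm10, and 4 of them form neighbouring pairs. *Tbx2* (gene identifier 21385, chromosome 11 from 85832615 to 85841948) lies 48.1 kb before *Tbx4* (21387, chromosome 11 from 85890063 to 85916097). *Tbx3* (21386, chromosome 5 from 119670669 to 119684601) lies 150 kb before *Tbx5* (21388, chromosome 5 from 119834663 to 119885218). *Tbx15* (21384) spans chromosome 3 from 99253760 to 99354260, *Tbx18* (76365) chromosome 9 from 87702800 to 87731260 and *Pitx1* (18740) chromosome 13 from 55825054 to 55831425. In the GENCODE M21 annotation, antisense transcripts overlap *Tbx3*, *Tbx15* and *Pitx1*, and *Tbx18* overlaps an unprocessed transcript model. The use of strand in counting is not stated, so reads of those partners could not be told apart from reads of these genes.

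Likeness in sequence between the relatives bears on how reads were assigned. The authors removed reads with more than 1 alignment, and the coding sequences of *Tbx4* and *Tbx5* were 68.4% identical over 1504 aligned bases, with a longest shared run of 23 bases. *Tbx15* and *Tbx18* were 69.6% identical over 1696 aligned bases with a longest shared run of 23 bases. Their most alike 150 bases are shown, since *Tbx18* was called higher in *aadd* and *Tbx15* was not. Capitals mark the 26 bases that differ, and the stretches lie in exons 3 and 4 of each gene (chr3:99313077-99313114 and chr3:99314744-99314855, plus strand, GRCm38, and chr9:87727364-87727401 and chr9:87724362-87724473, minus strand).
Tbx15: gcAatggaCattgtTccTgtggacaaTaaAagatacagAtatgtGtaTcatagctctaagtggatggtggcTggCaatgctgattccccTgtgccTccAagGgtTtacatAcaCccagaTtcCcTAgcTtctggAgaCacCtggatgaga
Tbx18: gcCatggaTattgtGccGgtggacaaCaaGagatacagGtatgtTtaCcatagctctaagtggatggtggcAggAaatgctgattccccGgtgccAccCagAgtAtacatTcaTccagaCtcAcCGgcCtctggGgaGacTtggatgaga
*Tbx2* and *Tbx3* were 70.3% identical over 2007 aligned bases, with a longest shared run of 14 bases and 28 differences in their most alike 150 bases. The read length is not given in the sources used here.

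*Tbx5*, the forelimb gene, had a mean below that of *Tbx15* alone in every group. It was at 70.1, 70.1 and 74.9 NRPKM in the 3 WT resting libraries, at 29.6, 10.9 and 19.1 in WT proliferative, at 18, 5.6 and 6 in WT hypertrophic and at 93.3, 90.9 and 104 in *aadd*. The WT resting and *aadd* libraries were all higher than the proliferative and hypertrophic ones, and every *aadd* library lay above every WT library. Within the hypertrophic group replicate 1 was the highest. *Tbx5* ranked between percentiles 98.4 and 99.2 of all rows in the WT resting and *aadd* libraries, and at percentile 73.3 in WT hypertrophic replicate 2.

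*Tbx5* fell between the WT resting and proliferative compartments, from 71.7 ± 2.79 NRPKM (SD, n = 3) to 19.9 ± 9.35 NRPKM. The log2 fold change was -1.96 (SE 0.35, adjusted *P* = 0.086 in limma, 0.049 to 0.27 over the alternatives). Against WT resting the hypertrophic mean of 9.85 ± 7.02 NRPKM gave a log2 fold change of -3.07 (SE 0.45, adjusted *P* = 0.018 in limma, 0.00037 to 0.088 over the alternatives). The step from proliferative to hypertrophic did not pass, with a log2 fold change of -1.11 and a 95% interval of -2.48 to 0.26 (adjusted *P* = 0.32 in limma, 0.057 to 1 over the alternatives). Without hypertrophic replicate 1 this step was called at -1.65, and with replicate 1 alone it was -0.03.

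With hypertrophic replicate 1 alone, the log2 fold change of *Tbx5* against WT resting was -1.99 (limma, adjusted *P* of 0.049). In that fit, chosen after seeing the data, the single library is assumed to vary as the other group does. Replicate 1 differed from the other hypertrophic libraries in *Mmp13* and *Spp1* as well as in endothelial and osteoclast markers. *Gm5563*, a row that ends 2.87 kb before *Tbx5*, followed a like course. It was at 12.1, 16.9 and 22.1 NRPKM in WT resting, at 8.65, 0 and 2.82 in WT proliferative, at 0.57, 0 and 2.68 in WT hypertrophic and at 17.6, 13.9 and 9.59 in *aadd*. *Gm5563* was named after its values were seen.

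*Tbx4*, the hindlimb relative of *Tbx5*, was read in all 12 forelimb libraries. It was at 5.98, 9.59 and 9.28 NRPKM in WT resting, at 1.27, 0.642 and 0.325 in WT proliferative, at 0.92, 0.317 and 0.412 in WT hypertrophic and at 12, 11 and 6.66 in *aadd*. Resting and *aadd* libraries overlapped each other and lay far above all 6 proliferative and hypertrophic libraries. By the length of its exons, about 60.1 to 80.7 reads stood behind the WT resting values and 64.8 to 113 behind those of *aadd*. Only 2.09 to 11.3 reads per library stood behind those of the WT proliferative and hypertrophic compartments.

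*Tbx4* fell from 8.28 ± 2 NRPKM (SD, n = 3) in WT resting to 0.745 ± 0.48 NRPKM in WT proliferative and 0.55 ± 0.324 NRPKM in WT hypertrophic. The log2 fold change to the proliferative compartment was -3.44 (SE 0.44, adjusted *P* = 0.035 in limma, 0.0077 to 0.16 over the alternatives, 0.089 when blocked by replicate number). Of the 6 fits that each left out 1 library, 1 kept the adjusted *P* of this step under 0.05. To the hypertrophic compartment it was -3.77 (SE 0.38, adjusted *P* = 0.0058 in limma, 0.00072 to 0.055 over the alternatives), under 0.05 in all 6 such fits. With hypertrophic replicate 1 alone it was -3.01. The proliferative and hypertrophic levels differed by -0.33 on the log2 scale, with a 95% interval of -1.59 to 0.94. Being low, they leave the size of these changes dependent on the 0.1 NRPKM added before the logarithm.

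Within each library *Tbx5* exceeded *Tbx4*, by 7.31-fold to 58.7-fold. The *Tbx4* level was 8.54%, 13.7% and 12.4% of the *Tbx5* level in the WT resting libraries, 4.29%, 5.88% and 1.7% in WT proliferative, 5.13%, 5.66% and 6.87% in WT hypertrophic and 12.8%, 12.1% and 6.41% in *aadd*. The share was higher in all WT resting libraries than in any proliferative or hypertrophic one. The *aadd* libraries overlapped both sets, since *aadd* replicate 3 lay below hypertrophic replicate 3.

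*Pitx1*, the upstream hindlimb factor, was the lowest or next to lowest member in all 12 libraries. It was at 0.138, 0.51 and 0.16 NRPKM in WT resting, at 0, 0.214 and 0 in WT proliferative, at 0, 0.126 and 0.137 in WT hypertrophic and at 1.32, 0.557 and 0.856 in *aadd*. At a transcript length of 2448 bp these values were whole reads within 0.02 of a read in all 12 libraries. That length was picked because it made them whole, so wholeness is no separate check. The reads were 1, 3 and 1 in WT resting and 9, 3 and 6 in *aadd*. In WT proliferative they were 0, 1 and 0, and in WT hypertrophic 0, 1 and 1. With the annotated exon length of 2656 bp, WT resting came to 1.08, 3.25 and 1.08 reads and *aadd* to 9.76, 3.25 and 6.51. Each *aadd* library was above every WT library, although *aadd* replicate 2 and WT resting replicate 2 had the same number of reads.

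The 18 *Pitx1* reads of the 3 *aadd* libraries stood against 5 of WT resting. Corrected for the effective depth, the ratio was 3.63 with an exact 95% interval of 1.3 to 12.5. Against WT proliferative, with 1 read, the ratio was 14.7 (2.33 to 614), and against WT hypertrophic, with 2 reads, it was 9.81 (2.35 to 87.2). The intervals cover counting error only and leave out the spread between libraries. Without the filter on low values, limma gave *Pitx1* a log2 fold change of 1.52 between *aadd* and WT resting (SE 0.49, adjusted *P* of 0.59). *Pitx1* thus met the unadjusted criteria in *aadd* in that fit, the only one in which it was tested. Its level came to 1.41%, 0.613% and 0.824% of the *Tbx5* level in *aadd*, 0.197%, 0.728% and 0.213% in WT resting, 0%, 1.96% and 0% in WT proliferative and 0%, 2.25% and 2.29% in WT hypertrophic. The highest of these shares were in hypertrophic libraries, where each stood on 1 read.

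**Figure D1:**
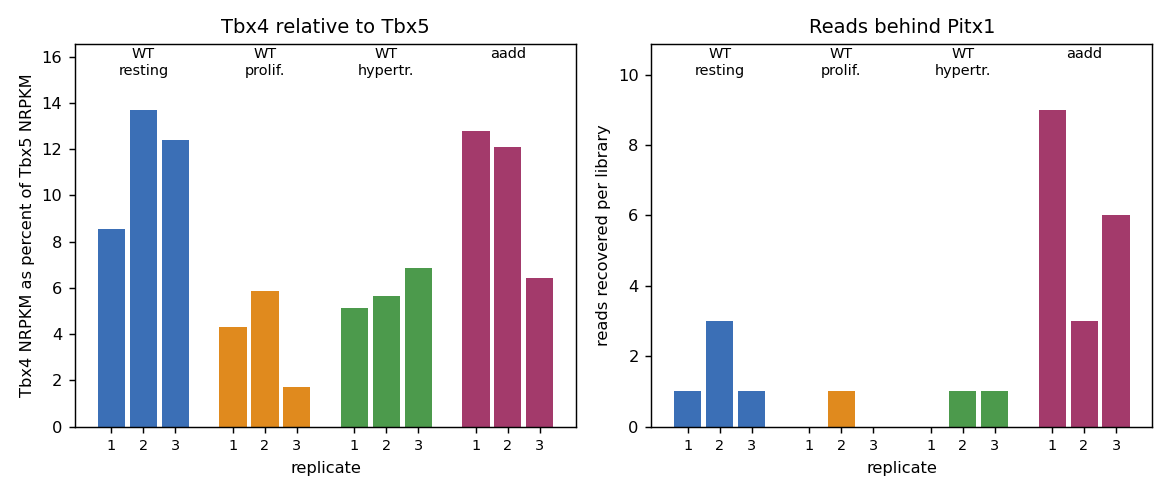
Left, *Tbx4* NRPKM as a percent of *Tbx5* NRPKM in each of 12 libraries; right, the reads behind *Pitx1* in the same libraries (1 bar per library, replicate number on the x axis, groups named above the bars). The *Tbx4* share was 8.54% to 13.7% in WT resting and at most 6.87% in the other WT libraries, and *Pitx1* had 3 to 9 reads in *aadd* against 0 to 3 in WT.

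Other genes tied to fore- or hindlimb character were read in the same libraries. None of the 5 hindlimb genes passed the filter. *Isl1*, which acts before limb budding in the hindlimb field, was at most 0.936 NRPKM, *Hoxc9* at most 0.924 and *Hoxc12* at most 1.48, and *Hoxc11* was at 0 in all 12 libraries. *Hoxc10* was at 1.31, 0.475 and 0.913 NRPKM in the *aadd* libraries and at most 0.277 in any WT library. Of the 3 *HoxC* genes transcribed at forelimb and shoulder levels, 2 were tested. They passed the filter only through their *aadd* libraries, so their number carries no weight and their values are given as a description. *Hoxc5* was at 8.09, 6.24 and 5.5 NRPKM in *aadd* against 0.62, 1.22 and 1.29 in WT resting (log2 fold change 2.59, adjusted *P* = 0.049 in limma). *Hoxc6* was at 15.7, 14.7 and 11.7 against 0.853, 2.73 and 2.55 (2.86, adjusted *P* of 0.096). *Hoxc4*, which did not pass the filter, was at 3.03, 8.3 and 4.59 in *aadd* and at most 0.915 in WT.

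*Tbx15*, a gene needed for normal growth of many skeletal elements, had the highest level of all members in each library. It was at 115, 106 and 103 NRPKM in WT resting, at 58.7, 36.5 and 49.3 in WT proliferative, at 45.3, 34.4 and 30.4 in WT hypertrophic and at 111, 92.4 and 104 in *aadd*. The resting and *aadd* libraries overlapped, and both groups were above all others. From 108 ± 6.58 NRPKM (SD, n = 3) in WT resting, *Tbx15* fell to 48.2 ± 11.2 NRPKM in WT proliferative, a log2 fold change of -1.19 (SE 0.21, adjusted *P* = 0.086 in limma, 0.026 to 0.27 over the alternatives). In WT hypertrophic it was at 36.7 ± 7.68 NRPKM, a log2 fold change of -1.57 against WT resting (SE 0.2, adjusted *P* = 0.012 in limma, 0.0011 to 0.1 over the alternatives). Of the 3 members called lower in the later compartments, *Tbx15* had the smallest change and *Tbx4* the largest. *Tbx3*, which was not called, differed from WT resting by -2.37 in WT proliferative and -1.12 in WT hypertrophic.

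Between *aadd* and WT resting *Tbx15* differed by -0.07 on the log2 scale, with a 95% interval of -0.45 to 0.3. The *Tbx5* means were 96.1 ± 6.9 NRPKM (SD, n = 3) for *aadd* and 71.7 ± 2.79 NRPKM for WT resting. This difference of 0.42 on the log2 scale (95% interval 0.07 to 0.77, adjusted *P* = 0.43 in limma, 0.38 to 0.93 over the alternatives) was under the FC limit of 1.5 in the fit and in all 12 alternatives. *Tbx4* differed by 0.24 (95% interval -0.46 to 0.93). *Tbx15* was above *Tbx5* in all 3 libraries of both groups. The ranges of the 2 genes over the libraries overlapped in *aadd* and not in WT resting.

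*Tbx18*, known from the ureter, the sinus node and the limb mesenchyme, was the 1 member called different in *aadd*. It was at 7.32, 4.99 and 7.7 NRPKM in WT resting, at 9.6, 6.26 and 5.58 in WT proliferative, at 6.94, 4.08 and 3.09 in WT hypertrophic and at 18.4, 14.8 and 21.4 in *aadd*. Every *aadd* library was above every WT library, and the 3 WT compartments overlapped. *Tbx18* rose from 6.67 ± 1.47 NRPKM (SD, n = 3) in WT resting to 18.2 ± 3.33 NRPKM in *aadd*, a log2 fold change of 1.44 (SE 0.23, 2.72-fold, adjusted *P* = 0.13 in limma, 0.082 to 0.43 over the alternatives). It met the unadjusted criteria in all 12 alternatives, with 1.25 to 1.58 on the log2 scale when 1 library was left out, and in none of them was the adjusted *P* under 0.05.

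Some markers of flanking tissue were called in the same comparison, where 3.78% of all genes tested were called higher. Of the 5 joint markers 3 were called higher in *aadd* (*Gdf5*, *Dcx* and *Sfrp2*). *Erg* (0.15 on the log2 scale) and *Prg4* (-1.53) were not called. The joint sum was 167 to 200 NRPKM against 112 to 124 in WT resting. The 9 perichondrium and connective tissue markers summed to 535 to 1170 NRPKM in *aadd* against 493 to 861, which overlapped. Of them 1 was called higher, *Osr1*, and their median log2 fold change was 0.36. Of 4 tendon markers 3 were tested and *Mkx* was called higher (sum of 232 to 395 against 88.1 to 323 NRPKM). Of 10 muscle markers 2 were tested and both, *Actc1* and *Mylpf*, were called higher (sum of 17.8 to 59.1 against 8.07 to 16.4 NRPKM). In WT resting they were at most 3.66 and 4.81 NRPKM and passed the filter through other groups alone, so their number is a description. *Myod1* was at 0, 0.245 and 0.377 NRPKM in *aadd* and at 0, 0 and 0.211 in WT resting. None of the marker calls named here had an adjusted *P* under 0.05 (0.089 to 0.48 in limma). The part of the named markers in the *Tbx18* result was not tested. Genotype and captured region cannot be told apart in this comparison, since *aadd* was the whole chondrocyte population and WT resting 1 compartment. Between the WT compartments *Tbx18* differed by 0.08 on the log2 scale from resting to proliferative (95% interval -0.58 to 0.74) and by -0.55 from resting to hypertrophic (-1.37 to 0.27).

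The 250 bases before a RefSeq start (GRCm38.p6) are shown for *Tbx18* and *Tbx4*, the 2 of 7 members with an entry in the table used. The *Tbx4* window lies before an internal start, inside the span given above for *Tbx4*, and not before the first base of that span. *Tbx18* was the member that rose in *aadd* and *Tbx4* the one with the largest fall between compartments. They lie at chr9:87731261-87731510 on the minus strand and chr11:85896515-85896764 on the plus strand. The capitals in *Tbx4* mark a TATA match.
Tbx18: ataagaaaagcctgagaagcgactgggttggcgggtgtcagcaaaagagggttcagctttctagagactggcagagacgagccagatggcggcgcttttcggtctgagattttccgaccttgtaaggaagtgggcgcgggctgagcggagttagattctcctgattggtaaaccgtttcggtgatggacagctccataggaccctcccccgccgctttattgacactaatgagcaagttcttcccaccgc
Tbx4: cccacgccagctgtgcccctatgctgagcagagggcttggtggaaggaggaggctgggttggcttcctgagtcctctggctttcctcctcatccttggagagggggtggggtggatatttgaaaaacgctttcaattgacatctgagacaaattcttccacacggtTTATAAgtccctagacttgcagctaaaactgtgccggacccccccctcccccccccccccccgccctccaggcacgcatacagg
The letters searched on both strands were GGTGTGA, the T-box core, found in 3.33% of 32851 such windows, TTTATGG and TTTACGA, bound by posterior Hox proteins, found in 2.43% and 0.478%, and TATAA, found in 22.8%. The letters TATAA were in the *Tbx4* window, and the other 3 were in neither window.

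*Tbx2* went the opposite way to its neighbour *Tbx4*. It was at 0.724, 0.351 and 0.11 NRPKM in WT resting, at 4.9, 2.59 and 6.89 in WT proliferative, at 5.3, 6.62 and 7.11 in WT hypertrophic and at 0.504, 0.495 and 0.053 in *aadd*. All 6 proliferative and hypertrophic libraries were above all resting and *aadd* libraries, which overlapped. The WT resting values rested on about 1.02 to 7.76 reads and those of *aadd* on 0.55 to 5.09, against 17.9 to 77.8 in the other libraries.

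*Tbx2* rose from 0.395 ± 0.309 NRPKM (SD, n = 3) in WT resting to 4.79 ± 2.15 NRPKM in WT proliferative, a log2 fold change of 3.41 (SE 0.56, adjusted *P* = 0.075 in limma, 0.026 to 0.24 over the alternatives). The hypertrophic mean was 6.34 ± 0.937 NRPKM, a log2 fold change of 3.9 against WT resting (SE 0.49, adjusted *P* = 0.011 in limma, 0.0024 to 0.13 over the alternatives). With hypertrophic replicate 1 alone it was 3.66. With so few reads in WT resting these folds depend on the 0.1 NRPKM added, and with 1 NRPKM added they were 2 and 2.41. They ranged from 2.9 to 3.89 and from 3.39 to 4.38 when 1 library was left out. Between proliferative and hypertrophic *Tbx2* differed by 0.49 (95% interval -0.4 to 1.39) and between *aadd* and WT resting by -0.17 (-1.77 to 1.43), an interval that takes in changes of over 2-fold either way.

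**Figure D2:**
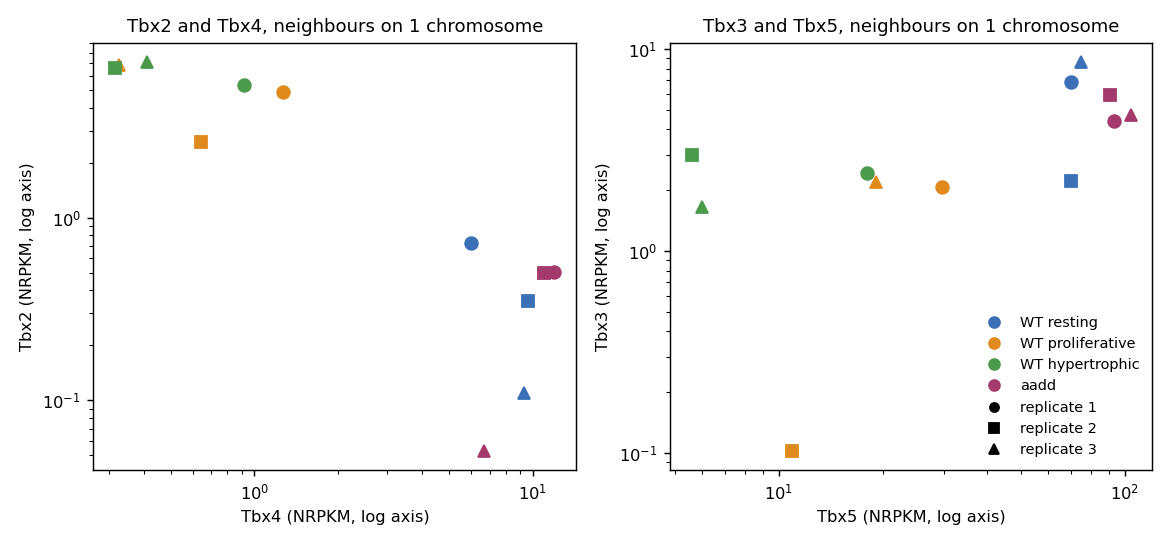
NRPKM of neighbouring genes in each of 12 libraries on log axes, *Tbx2* against *Tbx4* on the left and *Tbx3* against *Tbx5* on the right (colours are groups, shapes are replicate numbers). On the left WT resting and *aadd* sit at high *Tbx4* (5.98 to 12 NRPKM) and low *Tbx2* (0.053 to 0.724) and the other groups at the reverse corner; on the right WT resting replicate 2 (2.21 NRPKM of *Tbx3*) lies apart from its group.

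*Tbx3*, the neighbour of *Tbx5*, was at 6.86, 2.21 and 8.61 NRPKM in WT resting, at 2.07, 0.103 and 2.19 in WT proliferative, at 2.44, 2.98 and 1.65 in WT hypertrophic and at 4.38, 5.93 and 4.73 in *aadd*. WT resting replicate 2, the library with skin keratins, lay near the hypertrophic libraries, and WT proliferative replicate 2 held about 1.3 reads. The part of the keratin signal in the *Tbx3* values was not tested. The means were 5.9 ± 3.31 NRPKM (SD, n = 3) in WT resting, 1.45 ± 1.17 in WT proliferative, 2.36 ± 0.667 in WT hypertrophic and 5.01 ± 0.812 in *aadd*.

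*Tbx3* was not called in any of the 4 comparisons. From WT resting to WT proliferative its log2 difference was -2.37 (95% interval -4.82 to 0.07, adjusted *P* = 0.31 in limma). It met the unadjusted criteria in 6 of 12 alternatives, namely with a pseudocount of 1 NRPKM (-1.5), with all 12 libraries fitted together (-2.37), once blocked by replicate number (adjusted *P* of 0.11) and, at -2.96, -2.93 and -2.97, without WT resting replicate 2, WT proliferative replicate 1 or WT proliferative replicate 3, with the adjusted *P* at 0.11 to 0.58 across all alternatives. From WT resting to WT hypertrophic the difference was -1.12 (-2.39 to 0.15), and without WT resting replicate 2 it was called at -1.7. Between *aadd* and WT resting it was -0.03 (-1.17 to 1.1), and without WT resting replicate 2 it was called at -0.62.

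**Figure D3:**
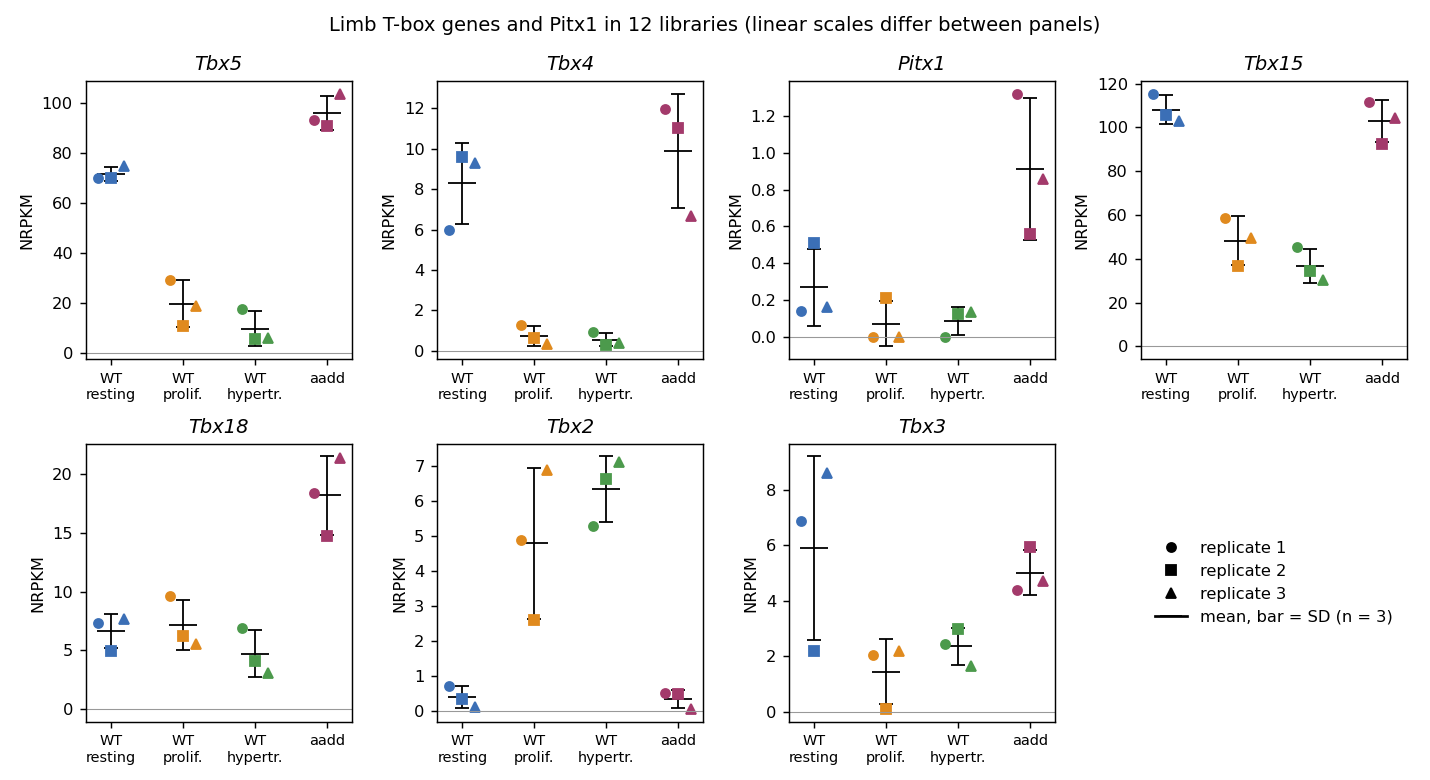
NRPKM of the 7 members in the 12 libraries on linear axes that differ between panels (points are libraries, shapes are replicate numbers, horizontal marks and bars are the mean and SD of 3 libraries). *Tbx5*, *Tbx4* and *Tbx15* are high in WT resting and *aadd*, *Tbx2* is high in the other 2 groups, and *Tbx18* and *Pitx1* are highest in *aadd*.

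Counts of members called are given beside those of all genes tested. *Tbx2* passed the filter only through the later compartments and *Tbx3* and *Tbx4* only through WT resting and *aadd*, so the counts are a description. In WT proliferative against WT resting, 3 of the 6 members tested were called lower (*Tbx4*, *Tbx5* and *Tbx15*) and 1 higher (*Tbx2*), where 2.97% of all genes tested were called lower and 2.56% higher. After adjustment 1 member passed, *Tbx4*, against 0.622% of all genes, and none did once blocked by replicate number. The median log2 fold change of all genes tested was -0.06. Some flanking tissue markers were called lower in WT proliferative, namely 3 of 5 joint markers (*Erg*, *Dcx* and *Sfrp2*) and 2 of 9 perichondrium and connective tissue markers (*Osr1* and *Osr2*). *Gdf5* (-0.11 on the log2 scale) and *Prg4* (-1.46) were not called. Of the markers called here, *Sfrp2* alone had an adjusted *P* under 0.05 (0.038 in limma). The joint sum was 32.7 to 55.8 NRPKM against 112 to 124. The connective tissue sum was 590 to 1350 against 493 to 861, with a median log2 fold change of -0.12 over its 9 markers. Their part in the member results was not tested.

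In WT hypertrophic against WT resting the same 4 members were called, 3 lower and 1 higher, where 7.2% of all genes tested were called lower and 5.84% higher. All 4 had an adjusted *P* under 0.05, against 6.36% of all genes. In limma without the filter on low values 2 did (*Tbx15* and *Tbx4*), and the same 2 did once blocked by replicate number. When 1 library was left out, between 1 and 4 members kept an adjusted *P* under 0.05, with the fewest without WT resting replicate 2 or WT hypertrophic replicate 3. These comparisons share the WT resting libraries. Of the chondrocyte markers 5 of 6 were called lower in WT hypertrophic, with *Sox9* at 143 NRPKM in replicate 1 and at 12.9 and 17.6 in replicates 2 and 3. With replicate 1 alone all 4 members met the unadjusted criteria, and 1 of them, *Tbx5*, had an adjusted *P* under 0.05 in limma. Of the joint markers 3 of 5 were called lower in WT hypertrophic (*Gdf5*, *Dcx* and *Sfrp2*, joint sum of 27.2 to 44.5 NRPKM against 112 to 124), as were all 3 tendon markers tested (*Scx*, *Mkx* and *Fmod*, tendon sum of 21.4 to 51 against 88.1 to 323). Of the 9 perichondrium and connective tissue markers *Osr1* and *Osr2* were called lower and *Col1a1* and *Col1a2* higher, with a sum of 882 to 2250 NRPKM against 493 to 861. Of the 3 endothelial markers tested 2 (*Pecam1* and *Cdh5*) were called higher, and so were the 3 osteoclast and macrophage markers tested (*Ctsk*, *Mmp9* and *Cd68*). *Pecam1*, *Cdh5* and *Mmp9* passed the filter only with their WT hypertrophic libraries, so these counts are a description. Of the marker calls named here, *Dcx* and *Sfrp2* alone had an adjusted *P* under 0.05 (0.045 and 0.0083 in limma). The part of the named markers in the member results was not tested.

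Between WT hypertrophic and WT proliferative none of the 6 members was called, where 5.32% of all genes tested were called higher and 4.34% lower. None of them had an unadjusted limma *P* of at most 0.05 either. Leaving out hypertrophic replicate 1 gave 1 call, that of *Tbx5*. Between *aadd* and WT resting 1 of the 6 members was called higher, *Tbx18*, and none lower, where 3.78% and 2.78% of all genes tested were called higher and lower. At an adjusted *P* under 0.05 the limma fit called none of the members and 0.119% of all genes, while 2 members, *Tbx18* and *Tbx5*, had an unadjusted *P* of at most 0.05. With 3 libraries against 3, an exact permutation test of a single gene could not have given a *P* below 0.1.

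**Figure D4:**
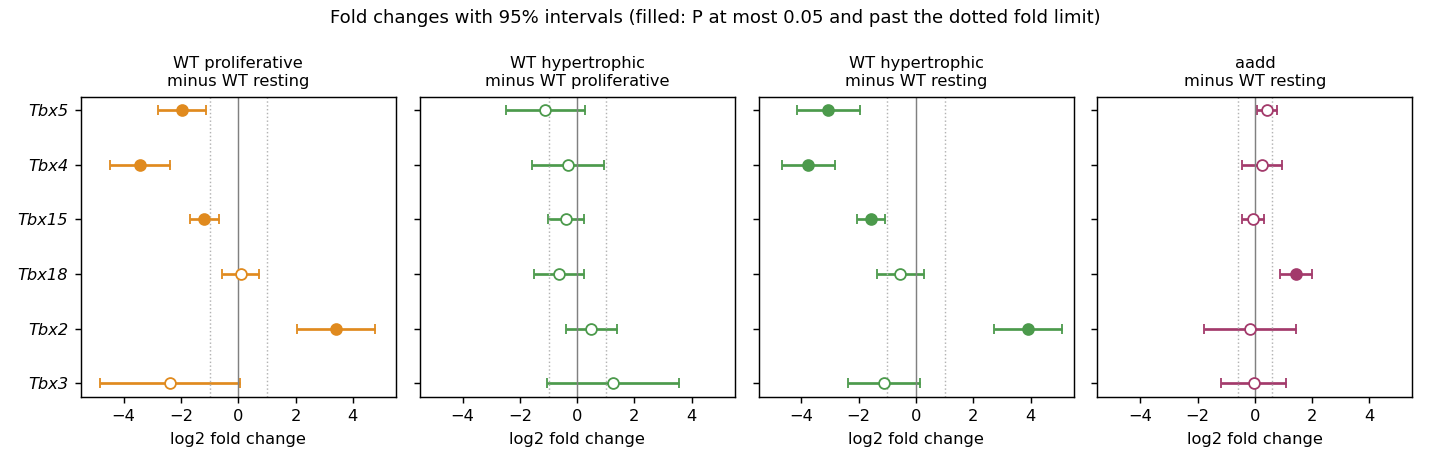
Log2 fold changes of the 6 members tested in 4 comparisons, with 95% intervals from limma (points; filled where the unadjusted *P* was at most 0.05 and the FC was past the dotted limit). *Tbx5*, *Tbx4* and *Tbx15* lie left of 0 and *Tbx2* right of 0 against WT resting in both later compartments, and *Tbx18* alone is filled for *aadd*, at 1.44.

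The order of the members by level changed between the compartments. In WT resting *Tbx15* led, followed by *Tbx5*, then by *Tbx4*, *Tbx18* and *Tbx3*, whose libraries overlapped, and last by *Tbx2* and *Pitx1*, which also overlapped. In WT proliferative the order of the means was *Tbx15*, *Tbx5*, *Tbx18*, *Tbx2*, *Tbx3*, *Tbx4* and *Pitx1*, with *Tbx18* and *Tbx2* overlapping and *Tbx3* and *Tbx4* overlapping. In WT hypertrophic replicates 2 and 3 *Tbx2* stood above *Tbx5*, and in replicate 1 below it. In all 3 *aadd* libraries the order was *Tbx15*, *Tbx5*, *Tbx18*, *Tbx4*, *Tbx3*, *Pitx1* and *Tbx2*, although the ranges of *Tbx15* and *Tbx5* overlapped.

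The genes most like each tested member were taken by Pearson correlation of log2(NRPKM + 0.1) over the 12 libraries, which fall into 4 groups and share their depth and tissue makeup. *Tbx15* was most like *Tbx5* (*r* of 0.977), *Kif3c* (0.971) and *Ccdc102a* (0.968). *Tbx5* was most like *Ssbp2* (0.985), *Sulf2* (0.982) and *Tcp11l1* (0.978). *Tbx4* was most like *Arhgef40* (0.994), a septin row whose symbol is held as a date (0.977) and *Dlgap1* (0.972). These neighbours were picked for likeness to members that are high in WT resting and *aadd*, so their being high there follows from the choice. *Sulf2*, for example, had group means of 139 and 167 NRPKM in WT resting and *aadd* and 86.1 and 55.1 in WT proliferative and WT hypertrophic.

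*Tbx2* was most like *Gna12* (0.966), *Alpl* (0.963) and *Entpd3* (0.962). *Alpl*, the alkaline phosphatase gene of mineralizing cartilage, had group means of 0.914, 41.9, 135 and 0.697 NRPKM in WT resting, proliferative, hypertrophic and *aadd*. *Tbx18* was most like *Alcam* (0.966), *Bmpr1b* (0.96) and *D3Ertd254e* (0.957). *Bmpr1b*, a BMP receptor gene of prechondrogenic tissue, had group means of 7.74, 6.05, 2.19 and 27.7 NRPKM in the same order. *Tbx3* was most like *Rnpepl1* (0.913), *Fut10* (0.912) and *Phtf1* (0.909), each lower than those of the other members.

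Of 11 other T-box genes (*Tbx1*, *Tbx6*, *Tbx10*, *Tbx19*, *Tbx20*, *Tbx21*, *Tbx22*, *Tbr1*, *Eomes*, *T* and *Mga*), *Mga* alone passed the filter, at 29.1 to 46.4 NRPKM, and it was called in no comparison. *Mga*, which carries a T-box and a second DNA-binding domain, is broadly transcribed. *Tbx1* was at 5.69 and 4.54 NRPKM in WT hypertrophic replicates 2 and 3, the libraries with endothelial and osteoclast markers, and at most 0.703 elsewhere. *Eomes* reached 5.23 NRPKM in *aadd* replicate 3.

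Of 14 genes of limb outgrowth that act with or after these factors, 8 passed the filter. *Fgf8*, of the apical ectodermal ridge, was at 0 in all 12 libraries, *Shh* was at most 0.0258 NRPKM and *Fgf10*, the target of *Tbx5* in the limb bud, was at 0.804 to 5.07 NRPKM and did not pass. *Cdkn1a*, the cell cycle inhibitor gene that *Tbx2* and *Tbx3* repress in other settings, was at 5.5, 11.5 and 11.1 NRPKM in WT resting, at 27.1, 27.4 and 39.9 in WT proliferative, at 68.7, 111 and 103 in WT hypertrophic and at 3.75, 8.43 and 3.63 in *aadd*. It rose with *Tbx2* between the WT compartments, by 3.36 on the log2 scale from resting to hypertrophic (adjusted *P* = 0.0063 in limma). *Cdkn2a*, the other such target, was at 0 in 10 libraries and at most 0.816.

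In WT proliferative against WT resting 2 of the 8 outgrowth genes were called higher (*Cdkn1a*, at 1.79, and *Bmp4*, at 1.59 on the log2 scale) and none lower. Neither passed adjustment (adjusted *P* = 0.088 in limma and 0.11). Of all genes tested 2.56% were called higher and 2.97% lower. In WT hypertrophic against WT proliferative *Cdkn1a* was called higher (1.57) and the BMP antagonist gene *Grem1* lower (-2.4). Neither passed adjustment (adjusted *P* = 0.12 in limma and 0.26), and 5.32% of all genes tested were called higher and 4.34% lower. Against WT resting the hypertrophic compartment had *Cdkn1a* and *Bmp4* (1.9, adjusted *P* = 0.045 in limma) higher. *Gli3*, the hedgehog effector gene (-1.14, adjusted *P* = 0.032 in limma), and *Grem1* (-3.54, adjusted *P* of 0.12) were lower. Of all genes tested 5.84% were called higher there and 7.2% lower. *Grem1* passed the filter only through WT resting and *aadd*, so its calls are a description. It was at 0, 1.32 and 0.205 NRPKM in WT hypertrophic. *Hand2*, a posterior limb factor gene, passed the filter only through its *aadd* libraries (10.7, 7.12 and 11.5 NRPKM, with at most 3.98 in WT). In *aadd* *Hand2* (2.63) and *Bmp4* (0.87) were called higher than in WT resting, and neither passed adjustment (adjusted *P* = 0.45 in limma and 0.51). Of all genes tested 3.78% were called higher in that comparison. *Fgfr2*, *Prrx1* and *Wnt2b* were called in no comparison. *Fgfr2* was under the FC limit in WT hypertrophic against WT resting, at -0.78 (adjusted *P* = 0.043 in limma).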

How the data were processed

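RNA was amplified with the NuGEN Ovation system and sequenced by the authors. Reads were aligned to mm10 (TopHat in the submitters' processing notes). Low-quality, multiply aligned and duplicate reads were removed, and the rest were summarised in GeneSpring. The file deposited by the authors holds RPKM after a further normalization across libraries (NRPKM). That normalization and strand use are not given in the sources used here. The effective depth was recovered from the most frequent value of 1632 single-exon rows. Exons of GENCODE M21 gave approximate reads, and for *Pitx1* a fitted length was used. No length tried made the values of *Tbx2* or *Tbx4* whole reads, so their read numbers are rough.

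The test was limma 3.58.1 on log2(NRPKM + 0.1) (R 4.3.3; Python 3.11.15), with the 6 libraries of each comparison without covariates, with Benjamini-Hochberg adjustment. The procedure was tested on simulated data. Fold changes on this scale understate those of low genes. Separate cultures or animals are not stated per library, so *P* measures the spread between these samples. Libraries of WT resting and WT proliferative with the same number deviated alike from their group means (*r* of 0.281, 0.179 and 0.198 across genes). The replicate block treated libraries with the same number as paired in every comparison. The authors' tables of comparisons were not used. The members, gene lists and tests were chosen with earlier results of these data known. Named genes were the members, the 3 genes most like each, and list genes that were called or define a list. An aligned coding stretch of *Tbx4* and *Tbx5* is not reported here.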

Additional observations from a re-analysis of the deposited data

How the results depend on the processing

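Each count of members called was recomputed with a pseudocount of 1, without the filter on low values, with quantile normalization or median-of-ratios rescaling, with all 12 libraries fitted together, with a replicate block, with each library left out, and an adjusted *P* under 0.05 in place of the FC criteria. A fit with WT hypertrophic replicate 1 alone was added after seeing the data. For the members' log2 fold changes, 278 of 300 alternatives kept direction and side of the criteria, 11 passed newly, none was lost and 11 turned direction.

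In WT proliferative minus WT resting 4 members were called, 4 to 5 with 1 library left out, 5 (*Tbx3* added) with the replicate block, a pseudocount of 1 or all 12 libraries fitted together, and 1 by the adjusted *P*. In WT hypertrophic minus WT resting 4 were called, 4 to 5 with 1 left out, and 4 with the replicate block, of which 2 had an adjusted *P* under 0.05. In WT hypertrophic minus WT proliferative none was called, 0 to 1 with 1 left out, and 1 (*Tbx5*) both in the fit of all 12 libraries and with the replicate block. In *aadd* minus WT resting 1 was called, 1 to 2 with 1 left out, 2 without the filter (*Pitx1* added), 1 with the replicate block and 0 by the adjusted *P*. For these differences the cause was not tested. The replicate block changed no other call. Outside the WT resting and proliferative pair the shared numbers gave *r* of -0.0973 to 0.28. The replicate block was fitted there too, as an alternative, although those numbers may not mark pairs.

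The turned differences were all of members not called. For *Tbx18*, proliferative minus resting ranged from -0.15 to 0.24 with 1 library left out, with -0.11 without WT resting replicate 2 and -0.15 without WT proliferative replicate 1, and hypertrophic minus resting 0.08 with hypertrophic replicate 1 alone. For *Tbx4*, hypertrophic minus proliferative ranged from -0.74 to 0.1, the latter without WT proliferative replicate 1, and was 0.43 with hypertrophic replicate 1 alone. In *aadd* minus WT resting, *Tbx2* ranged from -0.68 to 0.49, with 0.31 without WT resting replicate 1 and 0.49 without *aadd* replicate 3, and *Tbx3* from -0.62 to 0.34, with 0.18 without WT resting replicate 1, 0.34 without replicate 3, 0.05 without *aadd* replicate 1 and 0 without *aadd* replicate 3. Depth limits *Pitx1*, *Tbx2* in WT resting and *aadd*, and *Tbx4* in the later compartments, each resting on a few reads per library.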
